A study of Mus musculus with 10 samples.

Results

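The third complementarity-determining region (CDR3) of the Igh chain was read in peritoneal cavity B-1a cells, and the rearrangements described here are those whose CDR3 held 8 or fewer amino acids. They were chosen from the deposited tables as rows called productive with a CDR3 amino acid sequence of that length. In all, 46737 of the 182329 productive clonotypes of 4 libraries met the rule, which is 25.6%, among 195529 clonotypes of any kind. A clonotype is a row of a table, which pairs V, D and J genes and a CDR3 with a count of reads. CDR3 length chose the members but genotype did not. Shares by length are compared between genotypes, and differences between short and longer CDR3s of a library are a description.

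Of the 4 libraries, 2 came from wild-type (WT) and 2 from Igll1-/- mice, all C57BL/6 and 6 to 8 weeks old. Igll1 encodes λ5, a part of the surrogate light chain (SLC), so that no pre-B cell receptor is formed in any cell of the knockout mouse. B-1a cells were sorted by surface markers, B220lo and CD5+ among them, Igh rearrangements were amplified from genomic DNA with primers in framework region 3 and J, to which a primer for VH12-3 had been added, and products of 120 to 280 bp were kept. The labels do not say whether 2 libraries of a genotype came from separate mice, so the spread between them may be technical in part. No marker gene can check the sort in DNA of this locus, and B-1a purity was not tested here. Among V genes known from B-1a cells, IGHV11-2 and IGHV12-3 had short clonotypes in every library. IGHV7-1 had 1 short clonotype in WT replicate 1, 1 in Igll1-/- replicate 2 and 0 in the others.

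The CDR3 is formed where V, D and J segments join. Its length depends on how many D bases are kept, on trimming of the ends and on bases added by terminal transferase, an enzyme that is low in the fetus. Fetal B-1a cells are known for short junctions with few added bases, and for IGHV11-2 and IGHV12-3 rearrangements whose antibodies bind phosphatidylcholine (PtC). Heavy chains that pair with SLC form the pre-BCR, which selects chains during development in the bone marrow. The nucleotides of the junction were not in the tables used here, so added bases and D trimming were not analysed.

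The most read short clonotypes show how little of a CDR3 remained at these lengths. They are given in 1-letter amino acid code, from the residue after the conserved cysteine to the residue before the conserved J tryptophan. They are shown because they have no D gene, because they hold the D gene IGHD4-1 (DQ52) in either of its open reading frames, or because they were large in a single library. All end in residues of IGHJ2 or IGHJ3.
IGHV1-47 with IGHJ3 and no D gene, highest in 3 of the 4 libraries: ARGGFAY
IGHV1-19 with IGHD4-1 and IGHJ3, the letters TG being a reading frame of IGHD4-1: ATGTWFAY
IGHV9-4 with IGHJ2 and no D gene, among the 3 most read in WT replicate 1: ARDFDY
IGHV1-82 with IGHD4-1 and IGHJ2, the letters NWD being the other open frame: ANWDFDY
IGHV1-26 or IGHV1-34 with IGHD2-12 and IGHJ2, found mostly in Igll1-/- replicate 1: YYSDY
IGHV5-4 with IGHD2-3 and IGHJ3, found mostly in Igll1-/- replicate 2: ARWLLPY

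The WT libraries held 11425 short of 50891 productive clonotypes and 11256 of 46309. The Igll1-/- libraries held 7997 of 30436 and 16059 of 54693. The short clonotypes had 36828 and 40854 reads in WT and 44455 and 86874 in Igll1-/-. Most rested on a single read, 66.5% and 70.2% in WT and 68.5% and 62.8% in Igll1-/- libraries, against 69.3% to 74.2% of the longer ones. The smallest share of its short clonotypes that 3 clonotypes can show lay between 0.0187% and 0.0375% of a library. Counts of short clonotypes per V gene differed between libraries of a genotype beyond counting error (chi-square 1013 for WT, with 104 degrees of freedom, and 1310 for Igll1-/-, with 114), so each library was kept on its own. No molecular identifier marks a rearrangement, so reads mix cells with PCR, and intervals cover counting error only.

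The sequenced window set a bound on which short CDR3s could be seen. The shortest sequence in every library was 151 bases, and V families differ in how many of those bases lie outside CDR3. The most frequent number was 145 for IGHV1 and IGHV14, for which a CDR3 of 2 residues reaches 151 bases. It was 133 for IGHV5, IGHV6, IGHV7 and IGHV10, for which 6 residues are needed. IGHV8, at 126, needs 9 residues and IGHV2, at 110, needs 14, so at that number short CDR3s of these 2 families lie outside the window. Rows with the most frequent number were 57.4% of IGHV8 and 33.0% of IGHV2. Clonotypes with under 139 bases outside CDR3, which cannot show a CDR3 of 4 residues, made up 28.0% and 26.2% of productive clonotypes in WT and 31.2% and 32.8% in Igll1-/- libraries.

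To ask whether loss of SLC goes with another share of short CDR3s, each productive clonotype was counted once. In WT B-1a cells 22.4% (95% Wilson interval 22.1% to 22.8%) and 24.3% (23.9% to 24.7%) of productive clonotypes were short. In Igll1-/- B-1a cells 26.3% (25.8% to 26.8%) and 29.4% (29.0% to 29.8%) were short. Both Igll1-/- libraries lay above both WT libraries, and the means, 27.8% ± 2.2 (SD, n = 2) and 23.4% ± 1.3 (SD, n = 2), differed by 4.44 percentage points. With 2 against 2 libraries an exact two-sided permutation test cannot go below p = 0.333, which is the value it gave. By reads the shares were 17.9% and 20.3% in WT and 26.1% and 32.9% in Igll1-/- libraries, a difference of 10.4 percentage points (exact permutation p = 0.333). The mean read count of a short clonotype was 3.22 and 3.63 in WT and 5.56 and 5.41 in Igll1-/- libraries, while that of longer ones was 4.28, 4.57, 5.60 and 4.59 in the same order.

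The difference between genotypes moved with V and J use. IGHV11-2 and IGHV12-3 together held 37.8% and 33.1% of productive reads in WT and 22.1% and 9.93% in Igll1-/- libraries. Few of these reads were short, 0.393% and 0.969% in WT and 0.445% and 3.51% in Igll1-/- libraries. Without both genes, short CDR3s made up 28.5% and 29.9% of reads in WT and 33.4% and 36.1% in Igll1-/- libraries, so the difference between the means was 5.54 instead of 10.4 percentage points. By clonotypes it was 3.86 points without them. There were 220 combinations of a V and a J gene with at least 20 clonotypes in every library. They held 92.4% and 90.5% of productive clonotypes in WT and 91.2% and 87.7% in Igll1-/- libraries. Their short share before weighting was not computed. When these combinations were given the same weight in every library, the short shares were 23.2% and 26.2% in WT and 25.9% and 28.5% in Igll1-/- libraries. The genotypes then overlapped, and the difference of 2.52 percentage points had an exact permutation p of 0.667.

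A rearranged CDR3 was often listed with many V genes, which bears on any count of rows. When each J gene and CDR3 of a library was counted once, the short shares were 16.7% and 18.7% in WT and 20.8% and 21.6% in Igll1-/- libraries. Among clonotypes with at least 10 reads they were 25.9%, 23.3%, 29.2% and 35.0% in the order WT replicates 1 and 2 and Igll1-/- replicates 1 and 2. Among clonotypes with at least 139 bases outside CDR3 they were 24.5%, 26.4%, 30.2% and 33.3%. In these 3 countings both Igll1-/- libraries stayed above both WT libraries. Among the remaining clonotypes, with under 139 bases outside CDR3, the shares were 17.2% and 18.4% in WT and 17.5% and 21.2% in Igll1-/- libraries, and the genotypes overlapped (difference 1.56 points, exact permutation p = 0.667). Unproductive clonotypes, of which 72.8% to 87.8% held a stop in CDR3, had short shares of 13.4% and 9.89% in WT and 13.3% and 16.6% in Igll1-/- libraries. By reads their short shares were 11.7% and 7.31% in WT and 8.33% and 6.43% in Igll1-/- libraries, lower on average in Igll1-/-, and the genotypes overlapped in both countings.

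**Figure D1:**
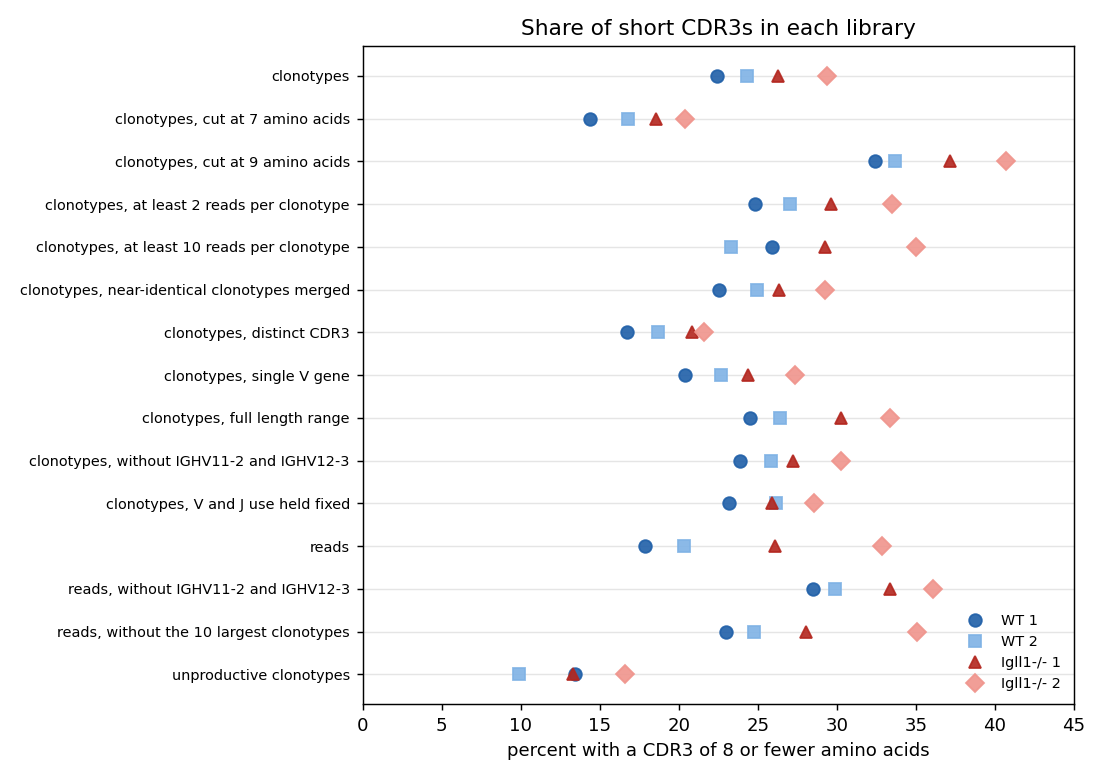
Percent of clonotypes, reads or unproductive clonotypes with a CDR3 of 8 or fewer amino acids (x axis) under each counting (y axis), with a point per library. Both Igll1-/- libraries lie above both WT libraries except with V and J use held fixed, where WT replicate 2 (26.2%) passes Igll1-/- replicate 1 (25.9%), and among unproductive clonotypes.

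Within the short range, most clonotypes held 5 to 8 residues. CDR3s of 2 or 3 residues were under 0.04% of productive clonotypes at each length in every library, and those of 4 residues were 0.407% and 0.486% in WT and 0.457% and 0.539% in Igll1-/- libraries. CDR3s of 6 residues made up 4.90% and 5.14% in WT and 6.71% and 7.77% in Igll1-/- libraries, which was the widest gap in points within the range, 2.22. By clonotypes, the lengths of 5, 7 and 8 residues overlapped between genotypes. By reads, 5 residues did not overlap, at 2.59% and 3.11% in WT and 6.40% and 4.16% in Igll1-/- libraries. Nor did 7 residues, at 5.22% and 7.49% in WT and 8.15% and 10.1% in Igll1-/- libraries. Just inside the rule, 8 residues were held by 8.05% and 7.50% in WT and 7.71% and 8.95% in Igll1-/- libraries. Just outside it, 9 residues were held by 9.94%, 9.38%, 10.9% and 11.3%. Further out, 13 residues were also higher in both Igll1-/- libraries, at 9.40% and 10.2% against 9.28% and 7.77% in WT. The lengths of 11, 12, 14, 17 and 18 residues were lower in both. The mean length of the short CDR3s was 6.86 and 6.75 residues in WT and 6.69 and 6.75 in Igll1-/- libraries.

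**Figure D2:**
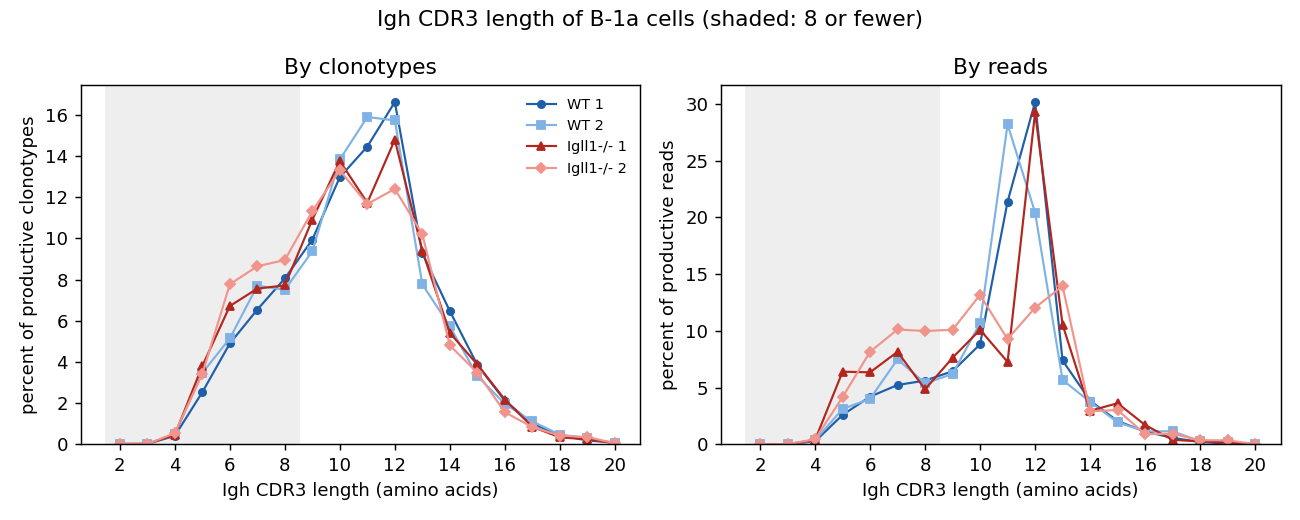
Percent of productive clonotypes (left) and of productive reads (right) at each Igh CDR3 length in amino acids, with a line per library and the lengths of 8 or fewer shaded. At 6 residues both Igll1-/- libraries (6.71% and 7.77% of clonotypes) lie above both WT libraries, and at 11 residues both WT libraries (21.4% and 28.2% of reads) lie above both Igll1-/- libraries (7.26% and 9.27%).

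Short CDR3s used J genes in other proportions than longer ones of the same library. A length rule favours J genes that add few residues, so this comparison between length classes is a description with no test. IGHJ2, which ends a CDR3 in FDY where it is untrimmed, was on 62.1% and 61.2% of short clonotypes in WT. It was on 57.2% and 53.6% in Igll1-/- libraries, against 39.3% to 40.7% of longer ones. The letters FDY were in 23.3% and 21.9% of all short CDR3s in WT and 21.2% and 19.8% in Igll1-/- libraries. IGHJ3, which ends it in FAY where it is untrimmed, was on 28.8% and 27.8% of short clonotypes in WT. It was on 32.6% and 36.0% in Igll1-/- libraries, against 15.4% to 22.5% of longer ones. The letters FAY were in 16.7% and 15.8% of all short CDR3s in WT and 18.5% and 17.1% in Igll1-/- libraries. IGHJ1 was on 2.83% to 3.75% of short and 14.05% to 23.1% of longer clonotypes, and IGHJ4 on 6.18% to 7.45% of short and 21.5% to 24.7% of longer ones.

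Between genotypes, the balance of IGHJ2 and IGHJ3 among short clonotypes did not overlap. IGHJ3 was higher in both Igll1-/- libraries, at 34.3% ± 2.4 (SD, n = 2) of short clonotypes against 28.3% ± 0.8 (SD, n = 2) in WT. IGHJ2 was lower, at 55.4% ± 2.6 (SD, n = 2) against 61.6% ± 0.6 (SD, n = 2). By reads the differences were wider, with IGHJ3 on 32.5% and 31.9% of short reads in WT and 43.3% and 46.9% in Igll1-/- libraries, and IGHJ2 on 62.2%, 59.8%, 51.0% and 46.9%. Among longer CDR3s, IGHJ3 was also higher by reads, at 12.1% and 10.02% in WT and 14.4% and 19.1% in Igll1-/- libraries. IGHJ2 was higher there too, opposite to its order among short reads. With each J gene and CDR3 counted once, IGHJ3 was at 29.6%, 27.2%, 30.9% and 35.3% of short CDR3s. In the fit across all gene segments, taken as a share of all productive clonotypes, short IGHJ3 differed by 0.53 ± 0.14 (SE) on the log2 scale and did not pass (edgeR's quasi-likelihood test, adjusted p = 0.405). In the same fit the log2 difference was 0.09 ± 0.09 (SE) for short IGHJ2 (adjusted p = 0.702 by edgeR) and 0.37 ± 0.27 (SE) for short IGHJ4 (adjusted p = 0.651 by edgeR). Of all productive clonotypes with IGHJ3, 27.5% and 36.7% were short in WT and 34.03% and 40.5% in Igll1-/- libraries, and the genotypes overlapped. Tested for short against longer clonotypes of the same gene, IGHJ3 had a log2 ratio of 0.34 ± 0.28 (SE) and did not pass (adjusted p = 0.519 by edgeR).

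D genes were less often named in short CDR3s. No D gene was given for 22.9% and 20.9% of short clonotypes in WT and 23.2% and 19.8% in Igll1-/- libraries, against 0.825% to 1.61% of longer ones. At 4 residues 79.2%, 70.2%, 74.1% and 48.5% had no D gene, at 6 residues 33.9%, 27.8%, 34.1% and 26.5%, and at 8 residues 7.07%, 6.82%, 11.7% and 7.17%, each in the order of WT and then Igll1-/- replicates. IGHD4-1, the shortest D gene and the nearest to the J genes, was on 19.9% and 21.3% of short clonotypes in WT and 18.2% and 16.3% in Igll1-/- libraries. Of all productive clonotypes with IGHD4-1, 43.9% and 40.6% were short in WT and 49.2% and 54.8% in Igll1-/- libraries. Both Igll1-/- libraries lay below both WT libraries in the first of these shares and above them in the second. Among longer clonotypes the IGHD4 family was also lower in both Igll1-/- libraries, at 6.68% and 5.57% against 7.36% and 9.99% in WT. As a share of all productive clonotypes, short IGHD4-1 differed by −0.01 ± 0.16 (SE) on the log2 scale (adjusted p = 0.972 by edgeR).

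IGHD2, IGHD1 and IGHD3 genes ranked in this order in each library. IGHD2 genes were on 25.9% and 23.2% of short clonotypes in WT and 28.3% and 30.6% in Igll1-/- libraries, IGHD1 genes on 18.2% to 22.8% and IGHD3 genes on 7.70% to 11.5%. IGHD5 and IGHD6 genes were each on under 2.3% in every library. IGHD3 and IGHD5 were lower, and IGHD2 higher, in both Igll1-/- libraries, and the longer CDR3s of the same libraries showed the same order between genotypes for these 3 families. Among short CDR3s with IGHD4-1, the letters TG were present in 26.3% and 32.4% in WT and 27.6% and 26.5% in Igll1-/- libraries. The letters NWD, of the other open frame, were present in 14.6%, 13.0%, 18.9% and 14.7%. Of all short CDR3s, 6.97% to 9.31% held TG and 3.00% to 4.14% held NWD.

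**Figure D3:**
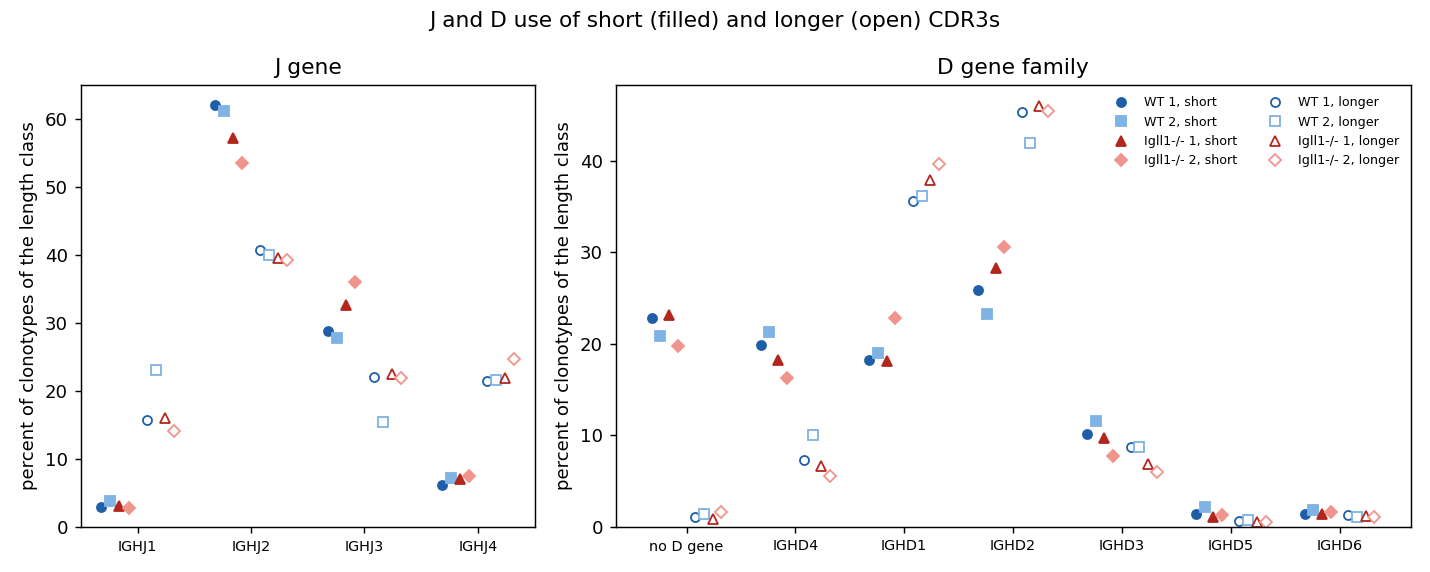
Percent of the clonotypes of a length class with each J gene (left) and each D gene family (right), with a point per library, filled for CDR3s of 8 or fewer amino acids and open for longer ones. IGHJ2, IGHJ3, IGHD4 and clonotypes without a D gene lie higher among short CDR3s, and short IGHJ3 is higher in both Igll1-/- libraries (32.6% and 36.0%) than in WT.

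Most short CDR3s used V genes of the large IGHV1 family, 65.1% and 65.7% in WT and 68.3% and 64.7% in Igll1-/- libraries, against 51.8% to 55.2% of longer ones. IGHV5 genes, nearer to the D genes, followed with 12.6% to 16.3%, and IGHV9 with 5.83% to 9.53%. Within a family, the share of clonotypes that were short ran from 37.9% to 45.2% for IGHV14 and from 25.4% to 34.2% for IGHV1 down to 0.629% to 2.45% for IGHV8. Families differ in how many of their short CDR3s fall below the shortest sequence, IGHV2 and IGHV8 having the fewest bases outside CDR3, so short shares are not comparable between families. In IGHV1 the short share was 25.4% and 27.8% in WT and 31.2% and 34.2% in Igll1-/- libraries. In IGHV5 it was 18.9% and 20.6% in WT and 18.2% and 21.9% in Igll1-/- libraries. IGHV14, IGHV6 and IGHV11 shared the order of IGHV1, with both Igll1-/- libraries above both WT libraries, IGHV2 and IGHV3 had the opposite order, and the other 6 families shown overlapped.

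Of 55 V genes with at least 50 productive clonotypes in every library, 45 had a higher mean short share in Igll1-/- than in WT libraries, with a median difference of 2.25 percentage points. In 20 of them, 36.4%, both Igll1-/- libraries lay above both WT libraries, and in 3, 5.45%, both lay below. The V genes of a library are not separate observations, since 1 short CDR3 can stand on many V assignments. ATGTWFAY stood on 79 in Igll1-/- replicate 2. The count of the 55 genes was not repeated with each J gene and CDR3 counted once. IGHV1-15 was the V gene with the most short clonotypes on average and had the widest gap of the 55, with 34.5% and 37.2% short in WT and 46.6% and 44.9% in Igll1-/- libraries. IGHV11-2 had 6.54% and 9.43% short in WT and 15.5% and 18.8% in Igll1-/- libraries. IGHV12-3, the other gene of PtC binding, had 3.93% and 8.13% in WT and 4.88% and 10.3% in Igll1-/- libraries, and the genotypes overlapped.

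The named V genes stood as follows among short clonotypes. IGHV1-15 made up 4.73% and 2.43% of short clonotypes in WT and 6.44% and 4.54% in Igll1-/- libraries, IGHV5-17 4.74%, 3.53%, 3.86% and 5.22%, and IGHV1-19 3.13%, 4.46%, 2.73% and 3.31%. The next 7 in mean share, IGHV5-4, IGHV1-53, IGHV1-64, IGHV1-82, IGHV6-3, IGHV1-7 and IGHV1-72, ran from 1.64% to 3.75% in single libraries. IGHV11-2 made up 0.805% and 1.79% of short clonotypes in WT and 0.463% and 0.579% in Igll1-/- libraries. IGHV12-3 made up 0.84%, 1.501%, 0.725% and 1.36%, and IGHV5-2, a V gene close to the D genes, 0.385%, 0.107%, 0.113% and 0.311%. IGHV7-1 had 1 short clonotype in WT replicate 1 and 1 in Igll1-/- replicate 2, and was not tested.

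In a fit of each V, D and J gene by length class, with the total of productive clonotypes as library size, 0 of the 87 short gene segments passed an adjusted p of 0.05 (edgeR's quasi-likelihood test), beside 0.503% of all 199 segments tested. At an unadjusted p under 0.05 by edgeR there were 7 of the 87 short segments, beside 13 of the 112 longer ones. DESeq2 passed 0 of the 87, with 9 short and 12 longer segments at an unadjusted p under 0.05. The median log2 fold change was 0.21 over the 87 short segments and 0.03 over all 199. With this library size, the larger short share of Igll1-/- libraries enters the value of each short segment. Fitted with short segments only and the total of short clonotypes as library size, the median was −0.037, with 40 of the 87 higher in Igll1-/- libraries. Both Igll1-/- libraries lay above both WT libraries in 26 of the 87 short segments and below in 12. Among the 112 longer segments they lay above in 17 and below in 35. Over all 199 segments they lay above in 43 (21.6%) and below in 47 (23.6%).

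The V genes with the largest fitted changes among those that did not overlap had few clonotypes. IGHV1-14 had 2 and 0 short clonotypes in WT and 14 and 27 in Igll1-/- libraries, IGHV1-34 6 and 3 against 15 and 32, and IGHV1-25 10 and 16 against 16 and 123. Downward, IGHV9-3 had 22 and 21 against 4 and 9, IGHV1-49 128 and 53 against 14 and 51, and IGHV11-2 92 and 202 against 37 and 93. Because IGHV1-14 had only 2 short clonotypes in WT, its fold depends on them, and its ratio of shares over both libraries was 23.4 with an exact 95% counting interval of 6.08 to 199.8 (adjusted p = 0.405 by edgeR). The other log2 fold changes were 2.52 and 2.37 upward and −1.55, −1.37 and −1.07 downward, with standard errors from 0.55 to 0.82 and adjusted p-values from 0.405 to 0.534 by edgeR. That of IGHV1-25 rests on Igll1-/- replicate 2, which held 123 of its short clonotypes against 10 to 16 in each other library. Without Igll1-/- replicate 1 it was 3.05 on the log2 scale, beside 3.16 for longer IGHV1-25 clonotypes.

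Whether a gene changed more among short than among longer CDR3s was tested for 85 genes with the library as a block. With clonotypes as rows, 0 of 85 passed (0.0% of those tested), with 14 at an unadjusted p under 0.05, and IGHV11-2 came closest, with a log2 ratio of 1.28 ± 0.33 (SE) and an adjusted p of 0.058 by edgeR. With each J gene and CDR3 counted once, IGHV11-2 passed, with a log2 ratio of 1.28 ± 0.30 (SE) and an adjusted p of 0.0030 by edgeR, as the only 1 of 73 genes tested, 1.37%. Longer IGHV11-2 clonotypes were lower in Igll1-/- libraries by −2.27 ± 0.31 (SE) on the log2 scale (adjusted p = 0.0230 by edgeR), against −1.07 ± 0.55 (SE) for short ones. The call for longer clonotypes was lost with at least 2 reads per clonotype (adjusted p = 0.122 by edgeR), without WT replicate 2 (−1.88, adjusted p = 0.261) and with near-identical rows merged, where the log2 value was −1.16 (adjusted p = 0.443).

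**Figure D4:**
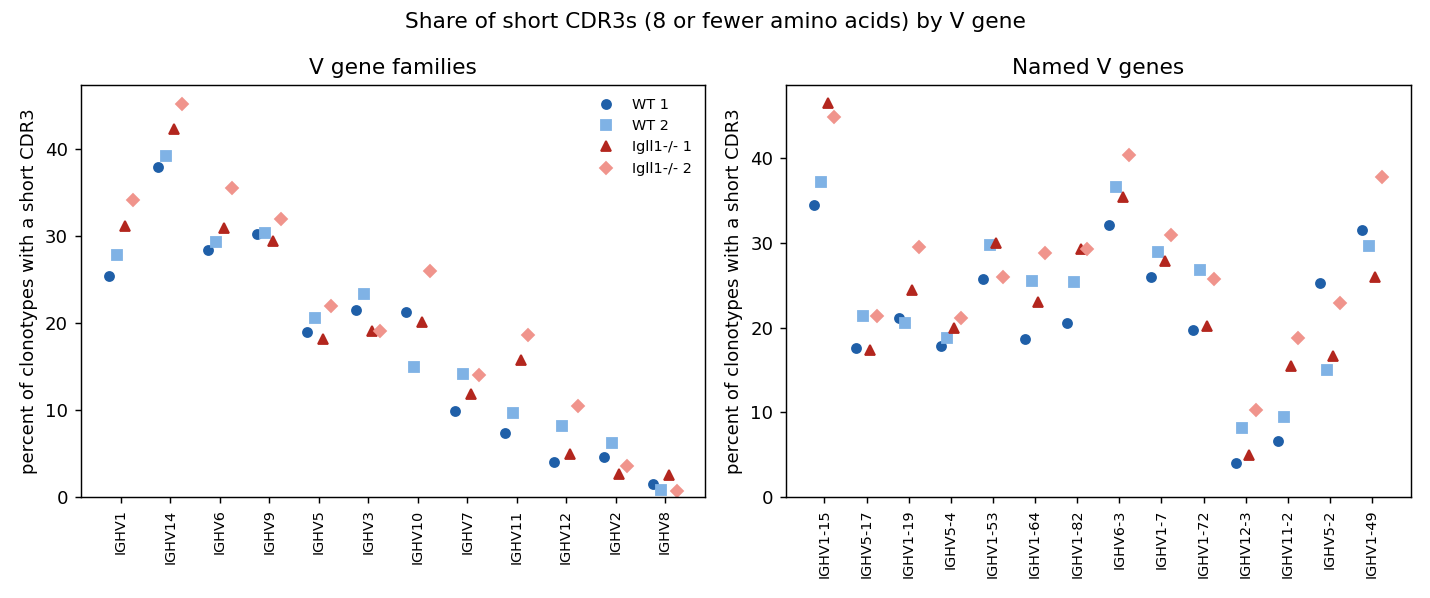
Percent of the clonotypes of a V gene family (left) and of named V genes with at least 50 productive clonotypes in every library (right) that have a CDR3 of 8 or fewer amino acids, with a point per library. IGHV1, IGHV14, IGHV6 and IGHV11 lie higher in both Igll1-/- libraries, while shares are not comparable between families, which differ in the CDR3 lengths that reach the shortest sequence of 151 bases.

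Tyrosine took 20.1% to 20.5% of all residues of short CDR3s, alanine 16.9% to 17.6%, aspartate 9.75% to 11.6% and arginine 8.90% to 10.04% in single libraries. In longer CDR3s alanine took 11.8% to 12.9% and glycine 7.94% to 9.04%, against 6.02% to 8.23% for glycine in short ones. Short CDR3s that ended in DY made up 51.8% and 50.9% of short clonotypes in WT and 49.6% and 46.9% in Igll1-/- libraries, and those that ended in AY 25.2%, 24.9%, 29.2% and 30.6%.

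Of the 20 amino acids, 11 did not overlap between genotypes in short CDR3s, 6 with both Igll1-/- libraries higher and 5 with both lower. Over the 40 shares of both length classes, 11 were higher in both (27.5%) and 9 were lower in both (22.5%). Threonine was at 4.83% and 5.16% in WT and 5.65% and 6.65% in Igll1-/- libraries, and methionine at 1.02%, 0.921%, 1.46% and 1.85%. Aspartate was at 11.6% and 10.97% in WT and 10.7% and 9.75% in Igll1-/- libraries, glycine at 7.39%, 8.23%, 6.95% and 6.02%, and arginine at 10.04%, 9.82%, 9.48% and 8.90%. Basic residues together took 11.3% and 10.9% in WT and 10.7% and 10.03% in Igll1-/- libraries. An exact permutation test of any of these cannot go below p = 0.333. In longer CDR3s, threonine was also higher and aspartate and glycine also lower in both Igll1-/- libraries, whereas arginine overlapped.

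Short clonotypes recurred between libraries. With a clonotype taken as a V gene, a J gene and a CDR3, there were 36733 distinct short ones, of which 30833 were in 1 library, 3756 in 2, 1479 in 3 and 665 in all 4, or 1.81%. Of 112378 distinct longer ones, 1088 or 0.968% were in all 4. Among clonotypes with at least 10 reads the shares in all 4 were alike, 0.371% of short and 0.367% of longer ones. In every library more of the short than of the longer clonotypes were found in another library, at 39.9% against 30.2% in WT replicate 1, 28.2% against 21.3% in WT replicate 2, 39.4% against 29.4% in Igll1-/- replicate 1 and 25.7% against 22.9% in Igll1-/- replicate 2. With each J gene and CDR3 counted once on its most read V gene, which must then match too, that order turned in 2 of the 4. It was 24.03% against 25.9% in WT replicate 2 and 26.6% against 27.8% in Igll1-/- replicate 2. Matched on CDR3 alone, 602 of 11787 short and 1203 of 61620 longer CDR3s were in all 4 libraries. Those were 11.1% of short against 4.21% of longer CDR3s in WT replicate 1 and 16.6% against 6.82% in WT replicate 2. In Igll1-/- replicates 1 and 2 they were 18.4% against 8.96% and 12.4% against 6.16%. Fewer sequences are possible at short lengths, and the share of pairs that match by length alone was not tested.

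The numbers of short clonotypes shared within and across genotypes overlapped. WT replicates 1 and 2 shared 2198 distinct short clonotypes, 19.6% and 20.1% of each. Igll1-/- replicates 1 and 2 shared 1914, 24.6% and 12.3% of each. Across genotypes, WT replicate 1 and Igll1-/- replicate 2 shared 2825, 25.1% and 18.2% of each, which was the largest number of the 6 pairs. Found in both WT libraries and no Igll1-/- library were 764, of which 11 had at least 10 reads in each, and 539 were found in both Igll1-/- libraries and no WT library, of which 10 had at least 10 reads in each. Among these were IGHV10-1 with IGHJ3 and CDR3 VRHYGFAY, with 26 and 71 reads in Igll1-/- libraries, and IGHV1-22 with IGHJ2 and CDR3 ARLGLDY, with 39 and 138 reads in WT libraries.

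**Figure D5:**
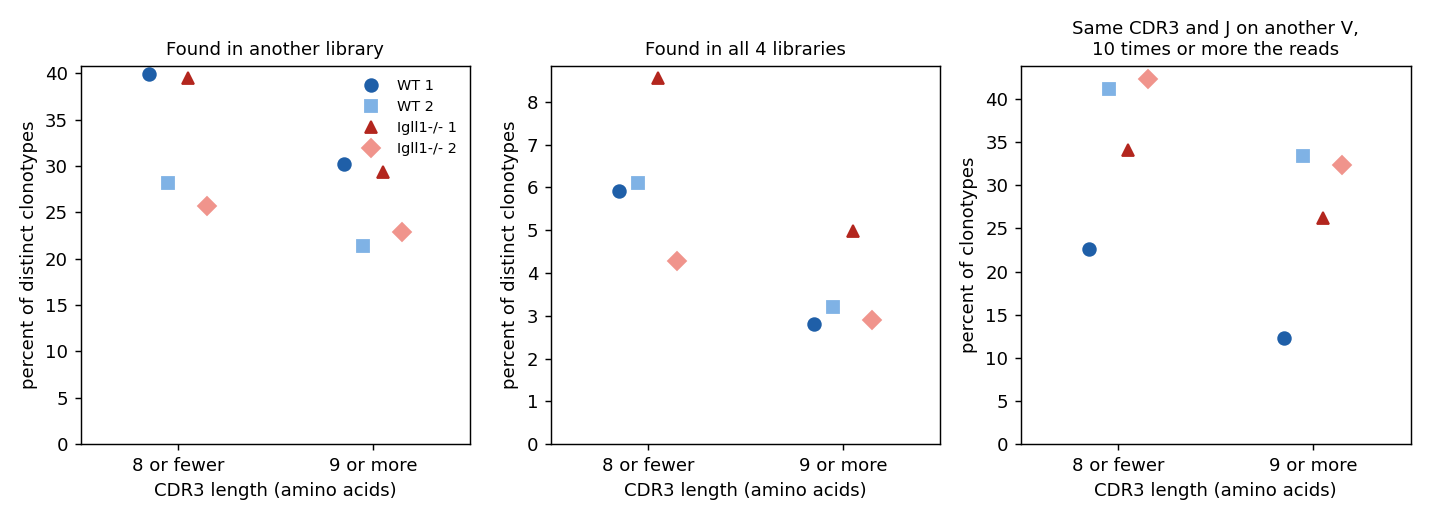
Percent of distinct clonotypes found in another library (left) or in all 4 (middle), and percent of clonotypes whose CDR3 and J gene stand on another row of the same library with at least 10 times the reads (right), for short and longer CDR3s with a point per library. All 3 measures are higher for short CDR3s in each library, and the genotypes overlap.

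The clonotypes in all 4 libraries were unevenly read. Of the 665, 466 had a single read in the library where they were lowest, 9 had at least 10 reads in every library, and in 54 the library with the highest share of reads had at least 10 times that of the next. ARGGFAY on IGHV1-47 had 798 and 717 reads in WT and 4307 and 833 in Igll1-/- libraries, 2.53% of productive reads in Igll1-/- replicate 1 and 0.315% to 0.387% in the others. ATGTWFAY on IGHV1-19 had 277 and 60 reads in WT and 489 and 1743 in Igll1-/- libraries. ANWDFDY on IGHV1-82 had 5 and 167 in WT and 675 and 625 in Igll1-/- libraries. Except for ANWDFDY in WT replicate 1, each of these 3 had at least 60 reads in every library.

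Others in all 4 libraries were large in a single one. YYSDY on IGHV1-26 or IGHV1-34 had 4063 reads in Igll1-/- replicate 1 and 39, 9 and 10 in WT replicates 1 and 2 and Igll1-/- replicate 2. ARWLLPY on IGHV5-4 had 2116 reads in Igll1-/- replicate 2 and 24, 6 and 7 in the other libraries. ANGNYVY on IGHV5-17 had 1218 reads in Igll1-/- replicate 2 and 10, 2 and 4 in the others. Whether low counts beside a large clonotype of another library are separate cells was not tested. ARDFDY on IGHV9-4 was read mostly in WT, with 237 and 102 reads against 1 and 5. Over all V assignments this CDR3 had 481 and 152 reads in WT and 148 and 181 in Igll1-/- libraries. ARGYFDV on IGHV9-3, with 446 reads, was found in WT replicate 2 and in no other library. Over all V assignments ARGYFDV had 7 and 538 reads in WT and 5 and 0 in Igll1-/- libraries.

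Reads of short clonotypes were more concentrated in Igll1-/- libraries. The 10 most read short clonotypes took 7.47% and 9.22% of short reads in WT and 31.8% and 14.98% in Igll1-/- libraries, and the single most read took 2.17%, 1.75%, 9.69% and 2.44%. Of the 100 clonotypes with the most reads of any length, 18 and 23 were short in WT and 31 and 40 in Igll1-/- libraries. Without the 10 largest clonotypes of each library, short CDR3s took 23.0% and 24.8% of reads in WT and 28.1% and 35.1% in Igll1-/- libraries. Rows with a V gene sequence identical to germline held 54.6% and 58.1% of short reads in WT and 69.6% and 62.3% in Igll1-/- libraries. Counted as rows they were 44.6%, 44.0%, 44.0% and 40.1% of short clonotypes, and 44.2%, 44.8%, 40.4% and 36.5% of longer ones. With primers in framework region 3, this identity covers only the end of the V gene.

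The same short CDR3 often stood on many V assignments of a library, an ambiguous pair of V genes being counted as 1 assignment. ATGTWFAY was listed on 86 V assignments over the 4 libraries, ARWDY on 83, ANWDFDY on 81 and ARGGFAY on 76. In Igll1-/- replicate 2, ASGSIAY had 2326 reads on 71 assignments, of which 1329 were on IGHV1-64, and no read of it was found in WT replicate 2. Of short clonotypes, 22.6% and 41.1% in WT and 34.1% and 42.3% in Igll1-/- libraries shared J gene and CDR3 with a row of at least 10 times their reads, against 12.4%, 33.4%, 26.2% and 32.3% of longer ones. These rows held 10.4%, 19.2%, 15.4% and 24.7% of short reads. Their part in the V gene counts was not tested beyond the counting of each J gene and CDR3 once. Between 22.4% and 26.7% of short clonotypes were listed with more than 1 V gene, and these entered the totals but no count of a V gene.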

How the data were processed

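Genomic DNA of sorted peritoneal cavity B-1a cells was amplified at Igh and sequenced by the authors, who assigned reads with IMGT/HighV-QUEST. The deposited tables hold 1 row per clonotype with its count of reads, its V gene identity in percent as given by the authors, a sequence length in bases, and V, D and J names. That length exceeds the CDR3 and was read here as the whole sequence. Sequences are amino acids only, and no genome build was needed. The members and gene lists were chosen with earlier results of these data known.

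Each productive row counted once. Shares were compared by exact two-sided permutation tests over 2 libraries per genotype. Each V, D and J gene was split into short and longer CDR3s, and the 199 segments that reached 10 clonotypes in 2 or more libraries were fitted together (edgeR 4.0.16, quasi-likelihood, Benjamini-Hochberg, R 4.3.3), with total productive clonotypes as library size. The test was checked on simulated counts. Clonotypes listed with several genes stayed in the total only. Alternatives were other length limits of 7 and 9 residues, minimums of 2 and 10 reads, reads in place of clonotypes, merging of rows differing at 1 residue from a row of 10 times the reads, TMM factors, no count filter, short segments only, the replicate number as a block, each library left out and DESeq2 1.42.0. Chosen after seeing the data were each J gene and CDR3 counted once, the full length range, fixed V and J use, removal of IGHV11-2 and IGHV12-3, and the test of short against longer within a gene.

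Named V genes were the 10 most used by short clonotypes on average, IGHV12-3, IGHV11-2, IGHV7-1 and IGHV5-2, and the 3 largest fitted changes each way among segments that did not overlap. Named clonotypes were the 3 most read per library and the 10 most read of those in all 4. Others named, such as the V genes IGHV10-1 and IGHV1-22 and the CDR3 ARWDY, were chosen after their values were seen. The light chain libraries of the series were not used here.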

Additional observations from a re-analysis of the deposited data

How the results depend on the processing

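The difference in short share between genotypes kept its direction under every alternative run, from 2.90 to 5.98 percentage points by clonotypes and from 7.01 to 13.8 by reads with a library left out, and the genotypes overlapped with V and J use held fixed. With the replicate number as a block it stayed at 4.44 points by clonotypes and 10.4 by reads, and 0 of all 199 gene segments passed, so that longer IGHV11-2 lost its call (−2.24, adjusted p = 0.313 by edgeR). Libraries with the same number deviated together at r = 0.29 over 87 short segments, which with 2 pairs does not settle a pairing. Instead of 0 short segments, 3 of 33 passed with at least 10 reads per clonotype, beside 8 of all 87 segments tested there. They were IGHJ3 at 0.79, IGHV1-15 at 2.24 and IGHV1-23 at 4.48 on the log2 scale. By reads 1 of 97 short segments passed, beside 2 of all 220. It was IGHV1-42 (6.11), where ARWDY had 1287 reads in Igll1-/- replicate 2. In the test within genes with each J gene and CDR3 counted once, 1 passed (IGHV11-2). Without Igll1-/- replicate 1, the log2 value was 3.05 for short and 3.16 for longer IGHV1-25. It was 2.56 and 1.95 for IGHV1-67, and 2.38 and 1.64 for IGHV1-85, in the same order. Only 1 Igll1-/- library was left in that fit. Clonotypes in all 4 libraries fell from 665 to 196 with at least 2 reads and to 9 with at least 10. They fell to 161 with each J gene and CDR3 counted once on its most read V gene. Amino acids that did not overlap numbered 5 by reads instead of 11, and 15 or 16 with a library left out. Of 367 refits of 23 named genes, 328 kept direction and side of the threshold, 3 newly passed and 36 changed sign. These changes of sign concerned 13 genes, and the cause was not tested. Fitted with short segments only, the log2 value was −0.22 for IGHV1-64, −0.021 for IGHV6-3, −0.16 for IGHV12-3, −0.17 for IGHV5-2, −0.16 for IGHJ1 and −0.15 for IGHJ2. By reads it was 0.52 for IGHV1-19, −0.21 for IGHV5-2, 0.069 for IGHV9-3, −0.46 for IGHJ1 and 0.079 for IGHD4-1. With each J gene and CDR3 counted once it was 0.077 for IGHV1-19, −0.62 for IGHV12-3 and 0.10 for IGHD4-1. In the full length range it was −0.46 for IGHV5-17, 0.029 for IGHV1-19, −1.06 for IGHV5-4, −0.11 for IGHV6-3 and 0.074 for IGHD4-1. With at least 10 reads it was −0.27 for IGHV1-64 and −0.24 for IGHJ1, with TMM −0.00056 for IGHV1-64, and with near-identical rows merged 0.088 for IGHV1-53. With a library left out, values ran from −0.36 to 0.26 for IGHV1-19, −0.73 to 0.26 for IGHV1-53, −0.058 to 0.12 for IGHV1-64, −0.011 to 0.55 for IGHV6-3, −0.32 to 0.033 for IGHV1-72, −0.54 to 0.65 for IGHV12-3, −0.93 to 1.24 for IGHV5-2, −0.15 to 0.35 for IGHJ1 and −0.11 to 0.10 for IGHD4-1. A lone library of a genotype was assumed to vary like the others. Precision is limited by 2 libraries per genotype and by rows of a single read.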
